A study of Mus musculus with 8 samples.

Results

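Enteroendocrine cells are the hormone-releasing cells of the gut epithelium, and 10 of their transcripts are described here in small-intestinal enterocyte preparations: Chga, Chgb, Neurod1, Tph1, Cck, Gip, Sct, Nts, Gcg and Pyy. The members were every probe set of the deposited table that the array's platform annotation assigns to a single gene symbol among these 10. This gave 11 probe sets, 2 of them for Neurod1, among 18443 probe sets in all (10 genes among 10401 with a single symbol). Enterocytes are the absorptive cells of the epithelium, and their RNA came from the small intestine of adult C57BL/6 males, 2.5 to 3.0 months old and fed a standard diet. The mutants, IE-Cpr-null, have no NADPH-cytochrome P450 reductase (Cpr, the electron donor of microsomal P450 enzymes) in the intestinal epithelium, and the controls were their wild-type (WT) littermates. With 4 arrays per genotype and 2 mice pooled on each, a genotype rested on 8 mice. Errors are therefore those between pools.

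Enteroendocrine cells are scattered singly among the absorptive cells and sense the contents of the lumen. They store peptide hormones or serotonin in dense-core granules, whose matrix is built of chromogranins, and release them toward the blood and nearby nerves. The hormones follow the length of the gut: Gip, Sct and Cck are made mainly in the duodenum and jejunum, and Nts, Gcg and Pyy mainly in the ileum and colon. Neurod1 is a helix-loop-helix transcription factor that acts late in the formation of these cells.

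All values are on the log2 scale, and a fixed offset had been taken from each probe set so that the median of its 4 WT arrays was 0. Levels were therefore unknown, no member could be called present or absent, and one gene's level could not be set against another's. The labelled cell type could not be read from levels for the same reason. The mean of 10 measured enterocyte markers ran from -0.030 to 0.026 in WT and from -0.10 to 0.020 in IE-Cpr-null. In whole preparations fewer cells of a type and less RNA per cell cannot be told apart. Differences are IE-Cpr-null minus WT, tested with limma over all probe sets, with Benjamini-Hochberg adjustment. Precision was limited by the small number of arrays.

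Most of the 10 genes had lower mean values in IE-Cpr-null preparations and the hormone gene Nts had a higher one, but no member passed the adjusted threshold. Of the 11 probe sets, 9 had a lower mean and 2 a higher one, where 42.5% of all probe sets had a lower mean. Their median difference was -0.24, beside 0.016 over all probe sets. Of 64 further genes from related lists, 21 had a lower mean and 43 a higher one, beside 42.4% of all genes lower. Levels being unknown, it could not be told which of the 64 were detected. No member (0 of 11) passed an adjusted p of 0.05 in limma, a call made for 0.0217% of all probe sets, and the smallest adjusted p was 0.339. At an unadjusted p under 0.05, 4 were lower (Chga, Chgb, Neurod1 in 1 of its probe sets, and Tph1) and 1 was higher (Nts), where 4.47% and 2.92% of all probe sets were called. All 4 IE-Cpr-null arrays lay below all 4 WT arrays in 3 probe sets and above them in 1, against 2.47% and 1.64% of all probe sets. These genes were chosen with earlier results of the same arrays known. With array weights in limma 4 probe sets passed (Chga, Chgb, Tph1 and Gcg, all lower), in a fit that called 741 probe sets, 4.02% of all.

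**Figure D1:**
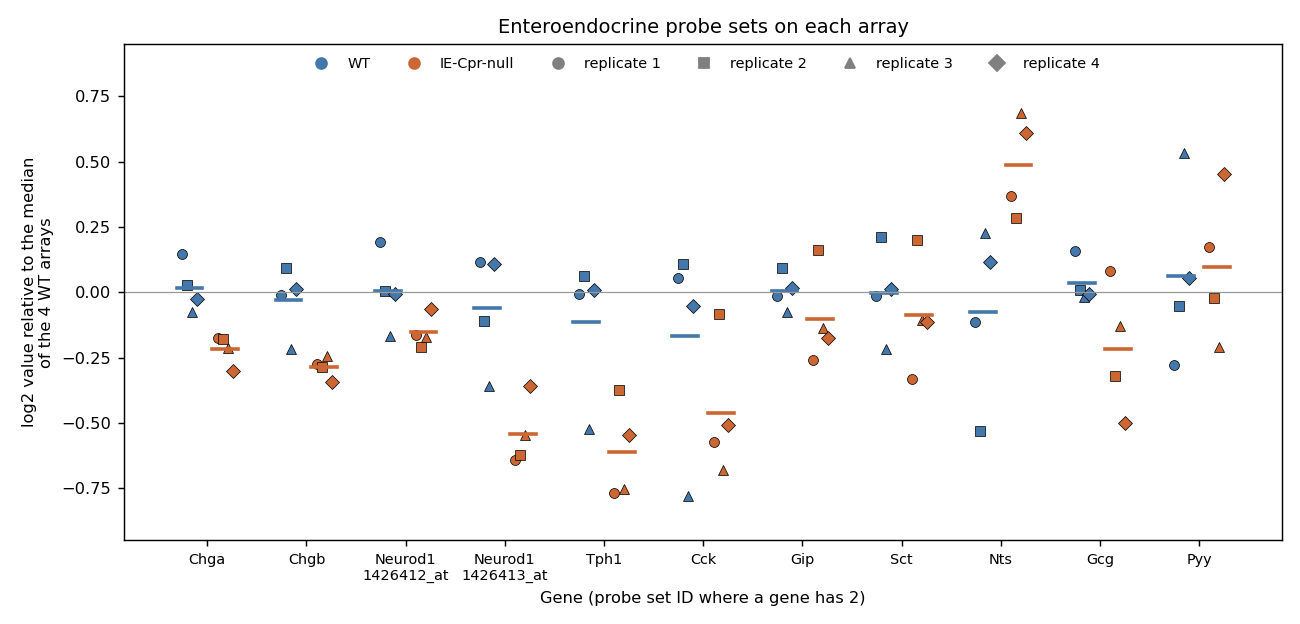
Values of the 11 probe sets on each of the 8 arrays, on a log2 scale whose 0 is the WT median of the probe set (vertical axis), by gene (horizontal axis). Points are arrays, symbols give the replicate number and bars are genotype means. The IE-Cpr-null points lie below all WT points for Chga, Chgb and Neurod1 probe set 1426413_at and above them for Nts.

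Sequences before the start site are shown for the 4 genes that had a probe set whose groups did not overlap (Chga, Chgb, Nts and, in 1 of its 2 probe sets, Neurod1), since every IE-Cpr-null array there lay on one side of every WT array. They are the 250 bases upstream of the RefSeq start on mouse build GRCm38.p6, written 5′ to 3′ on the strand of the gene, at chr12:102554691-102554940 (+) for Chga, chr2:132781392-132781641 (+) for Chgb, chr2:79456637-79456886 (-) for Neurod1 and chr10:102490419-102490668 (-) for Nts. Capitals mark matches on either strand to TGACGTNA, the form of the cAMP response element, and to CANNTG, the E-box to which helix-loop-helix factors such as Neurod1 bind.
Chga: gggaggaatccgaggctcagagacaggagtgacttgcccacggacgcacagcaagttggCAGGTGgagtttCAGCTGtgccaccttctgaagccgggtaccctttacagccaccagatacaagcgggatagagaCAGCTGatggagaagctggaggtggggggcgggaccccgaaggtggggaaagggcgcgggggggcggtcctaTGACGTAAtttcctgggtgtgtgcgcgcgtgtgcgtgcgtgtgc
Chgb: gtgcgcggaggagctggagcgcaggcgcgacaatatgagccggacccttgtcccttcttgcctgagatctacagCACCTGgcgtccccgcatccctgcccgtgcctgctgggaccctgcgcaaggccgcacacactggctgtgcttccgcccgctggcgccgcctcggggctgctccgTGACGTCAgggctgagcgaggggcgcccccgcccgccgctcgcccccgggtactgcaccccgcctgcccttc
Neurod1: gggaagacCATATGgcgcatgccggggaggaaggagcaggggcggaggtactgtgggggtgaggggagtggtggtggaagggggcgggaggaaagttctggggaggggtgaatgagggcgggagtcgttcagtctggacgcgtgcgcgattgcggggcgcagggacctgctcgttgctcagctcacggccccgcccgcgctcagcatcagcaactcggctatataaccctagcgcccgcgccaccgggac
Nts: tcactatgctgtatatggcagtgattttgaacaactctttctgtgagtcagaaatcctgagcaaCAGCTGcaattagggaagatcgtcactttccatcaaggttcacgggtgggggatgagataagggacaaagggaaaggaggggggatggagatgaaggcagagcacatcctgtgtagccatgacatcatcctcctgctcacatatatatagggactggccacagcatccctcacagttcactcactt

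Both chromogranin genes carried a TGACGTNA match, with its first base at position -44 of Chga and -72 of Chgb, counted back from the start site. No other of the 12 windows available for the 10 genes held one (Tph1 and Pyy have 2 windows each). Of 32841 mouse windows of this length, 2.52% held it. CANNTG was found in 10 of the 12 windows, with 3 matches in Chga and 1 each in Chgb, Neurod1 and Nts, and in 66.2% of all windows. Matches to the 2 motifs did not overlap. A match is a description of letters and shows no binding.

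Chga and Chgb encode chromogranin A and B, the acidic matrix proteins of the secretory granule and the most general markers of enteroendocrine cells. Chga stood at 0.15, 0.026, -0.077 and -0.026 on WT replicates 1 to 4 and at -0.18, -0.18, -0.21 and -0.30 on IE-Cpr-null replicates 1 to 4. Every IE-Cpr-null array was below every WT array. The mean difference was -0.24 (SE 0.0573, n = 4 arrays per genotype), which put the IE-Cpr-null level at 84.9% of WT (limma adjusted p = 0.339). Chgb stood at -0.012, 0.094, -0.22 and 0.012 on the WT arrays and at -0.28, -0.29, -0.24 and -0.34 on the IE-Cpr-null arrays. The groups were again apart, although WT replicate 3 came close to the highest IE-Cpr-null array. The difference was -0.26 (SE 0.0681), a level of 83.7% of WT (limma adjusted p = 0.381). Neither granule gene passed the adjusted threshold. The SD between IE-Cpr-null arrays was 0.058 for Chga and 0.041 for Chgb.

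Neurod1 was read by a pair of probe sets that gave the same direction and different sizes. Probe set 1426413_at stood at 0.11, -0.11, -0.36 and 0.11 on the WT arrays and at -0.64, -0.62, -0.55 and -0.36 on the IE-Cpr-null arrays. The groups were apart but nearly touched, at WT replicate 3 and IE-Cpr-null replicate 4. The difference was -0.48 (SE 0.119, 71.6% of WT, limma adjusted p = 0.339). Probe set 1426412_at stood at 0.19, 0.0058, -0.17 and -0.0058 on the WT arrays and at -0.16, -0.21, -0.17 and -0.063 on the IE-Cpr-null arrays. Its groups overlapped, with a difference of -0.16 (SE 0.0765, limma adjusted p = 0.73). It was -0.096 without WT replicate 1 and -0.079 with array weights. The mean of both probe sets differed by -0.32 between the genotypes (SE 0.0934, limma adjusted p = 0.362).

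Tph1 encodes tryptophan hydroxylase 1, the rate-limiting enzyme of serotonin synthesis in the enterochromaffin cells, which are the serotonin-making class of enteroendocrine cells. It stood at -0.0074, 0.062, -0.52 and 0.0074 on the WT arrays and at -0.77, -0.37, -0.75 and -0.55 on the IE-Cpr-null arrays. WT replicate 3 lay among the IE-Cpr-null arrays, and the other WT arrays lay well above all of them. The difference was -0.50 (SE 0.15, 70.9% of WT, limma adjusted p = 0.471), the lowest of the 11. Without WT replicate 3 it was -0.63 (limma adjusted p = 0.18).

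The hormones of the upper small intestine had lower means, with groups that overlapped. Cck encodes cholecystokinin, which empties the gallbladder and stimulates pancreatic enzyme secretion. It stood at 0.055, 0.11, -0.78 and -0.055 on the WT arrays and at -0.57, -0.084, -0.68 and -0.51 on the IE-Cpr-null arrays. The lowest of all 8 values was that of WT replicate 3, and IE-Cpr-null replicate 2 was close to the other WT arrays. The difference was -0.29 (SE 0.22, limma adjusted p = 0.86), and without WT replicate 3 it was -0.50 (limma adjusted p = 0.444). Without the muscle-rich arrays (WT replicate 2 and IE-Cpr-null replicate 1) it was -0.16. Gip encodes the incretin glucose-dependent insulinotropic polypeptide, which raises insulin release after a meal. It stood at -0.016, 0.093, -0.075 and 0.016 on the WT arrays and at -0.26, 0.16, -0.14 and -0.18 on the IE-Cpr-null arrays. IE-Cpr-null replicate 2 was the highest of all 8 and the other IE-Cpr-null arrays were below every WT array. The difference was -0.11 (SE 0.0921, limma adjusted p = 0.86). Without the 2 arrays rich in hepatocyte transcripts, IE-Cpr-null replicates 2 and 3, it was -0.22 (limma adjusted p = 0.596). Sct encodes secretin, which stimulates bicarbonate secretion by the pancreas. It stood at -0.014, 0.21, -0.22 and 0.014 on the WT arrays and at -0.33, 0.20, -0.11 and -0.11 on the IE-Cpr-null arrays. The groups overlapped through most of their range, and the difference was -0.087 (SE 0.128, 95% confidence interval -0.39 to 0.21, limma adjusted p = 0.86). For Gip and Sct alike, IE-Cpr-null replicate 2 had the highest value of its group and replicate 1 the lowest. Without IE-Cpr-null replicate 1 the Gip difference was -0.054 and that of Sct -0.0063, and without replicate 2 they were -0.20 and -0.18. Without the muscle-rich arrays they were -0.025 and 0.065, so the direction of Sct rested on those arrays.

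The hormones of the lower small intestine had means on both sides of WT, and none passed the adjusted threshold. Nts encodes neurotensin, a peptide of the ileal N cells that slows gut motility and favours fat absorption. It stood at -0.12, -0.53, 0.23 and 0.12 on the WT arrays and at 0.37, 0.28, 0.69 and 0.61 on the IE-Cpr-null arrays. Every IE-Cpr-null array was above every WT array, with WT replicate 3 closest to them. The difference was 0.56 (SE 0.175, 1.48-fold, limma adjusted p = 0.479), the largest in size among the 11 probe sets. Leaving out single arrays gave 0.41 (without WT replicate 2, the lowest WT array) to 0.66 (without WT replicate 3). Gcg encodes proglucagon, from which intestinal L cells cut the glucagon-like peptides. It stood at 0.16, 0.0076, -0.017 and -0.0076 on the WT arrays and at 0.079, -0.32, -0.13 and -0.50 on the IE-Cpr-null arrays. IE-Cpr-null replicate 1 lay within the WT range and the other IE-Cpr-null arrays below it. The difference was -0.25 (SE 0.121, limma adjusted p = 0.725). It was -0.16 without IE-Cpr-null replicate 4, -0.36 without the muscle-rich arrays (limma adjusted p = 0.411) and -0.45 with array weights. Pyy encodes peptide YY, the appetite-lowering peptide of the same L cells. It stood at -0.28, -0.054, 0.53 and 0.054 on the WT arrays and at 0.17, -0.022, -0.21 and 0.45 on the IE-Cpr-null arrays. The WT arrays spread more widely than the IE-Cpr-null arrays and enclosed them. The difference was 0.035 (SE 0.2, 95% confidence interval -0.43 to 0.50, limma adjusted p = 0.95), and its sign changed under 5 of 17 other settings.

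**Figure D2:**
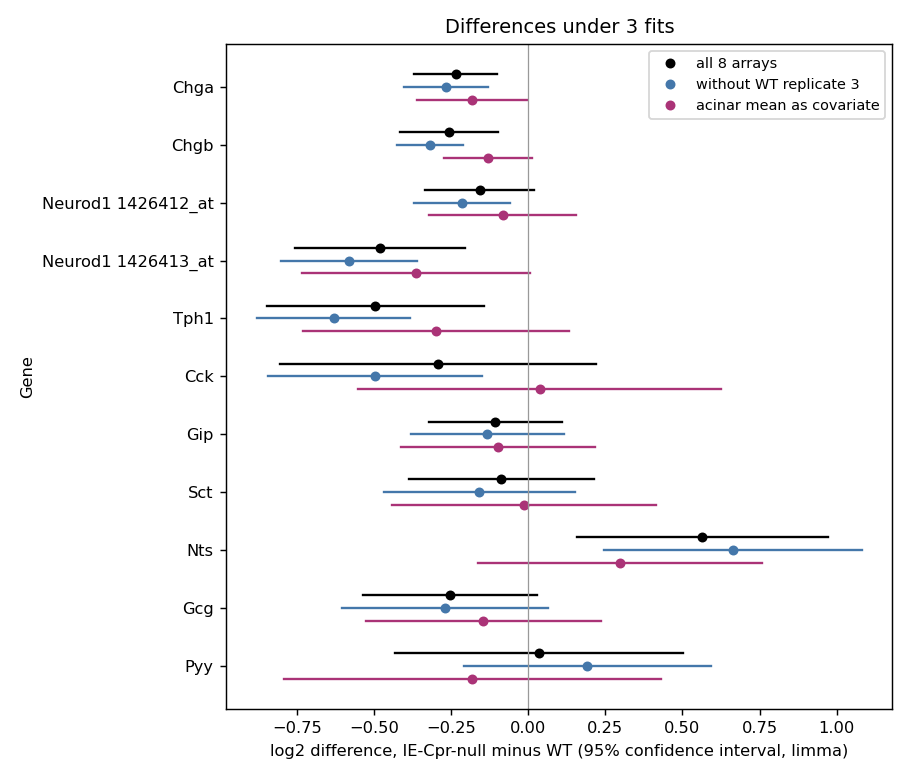
Difference between the genotypes for each probe set (horizontal axis, log2, IE-Cpr-null minus WT), with 95% confidence intervals from limma, from all 8 arrays, without WT replicate 3, and with the mean of the acinar marker genes as a covariate. Without WT replicate 3 the Cck difference was -0.50 in place of -0.29, and with the covariate it was 0.037.

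WT replicate 3 was the lowest or the highest WT array in every member, as it was in 65.5% of all 18443 probe sets. WT replicate 1 was so in 68.9% of all probe sets. Among the members WT replicate 3 was the lowest WT array in 9 probe sets and the highest in the other 2, Nts and Pyy. In all 11 it was the extreme WT array on the side of the IE-Cpr-null difference, a combination found in 24.2% of all probe sets. For WT replicate 1 that combination was found in 0 of the 11 and in 44.6% of all probe sets. WT replicate 3 lay within the range of the IE-Cpr-null arrays in 5 probe sets (Neurod1 1426412_at, Tph1, Gip, Sct and Gcg) and past that range for Cck and Pyy. For Chga, Chgb, Neurod1 1426413_at and Nts it fell short of it. Without that array 6 probe sets lay wholly below the WT arrays and 1 above, against 4.7% and 2.55% of all probe sets. Those lower were Chga, Chgb, both Neurod1 probe sets, Tph1 and Cck. The probe sets come from the same cells and preparations and are not independent of each other.

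Transcripts of pancreatic acinar cells, the enzyme-secreting cells of the neighbouring pancreas, also set WT replicate 3 apart from the other WT arrays. All 12 measured genes of that 16-gene list had a lower mean in IE-Cpr-null, with a median difference of -3.22. The list mean was -4.16 on WT replicate 3 and -0.58 to 1.36 on the other WT arrays. It ran from -4.37 to -4.25 on IE-Cpr-null replicates 2 to 4 and was -1.67 on replicate 1. With the acinar mean as a covariate in limma, chosen after seeing the data, the Chga difference was -0.18 and that of Neurod1 1426413_at was -0.36. Under the same fit Chgb was at -0.13, Neurod1 1426412_at at -0.084, Tph1 at -0.30 and Cck at 0.037. Gip was at -0.0996, Sct at -0.014, Nts at 0.30, Gcg at -0.15 and Pyy at -0.18. In that fit the smallest adjusted p among the 11 was 0.689. A single WT array was low in acinar transcripts, so genotype and acinar level cannot be told apart for the members.

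**Figure D3:**
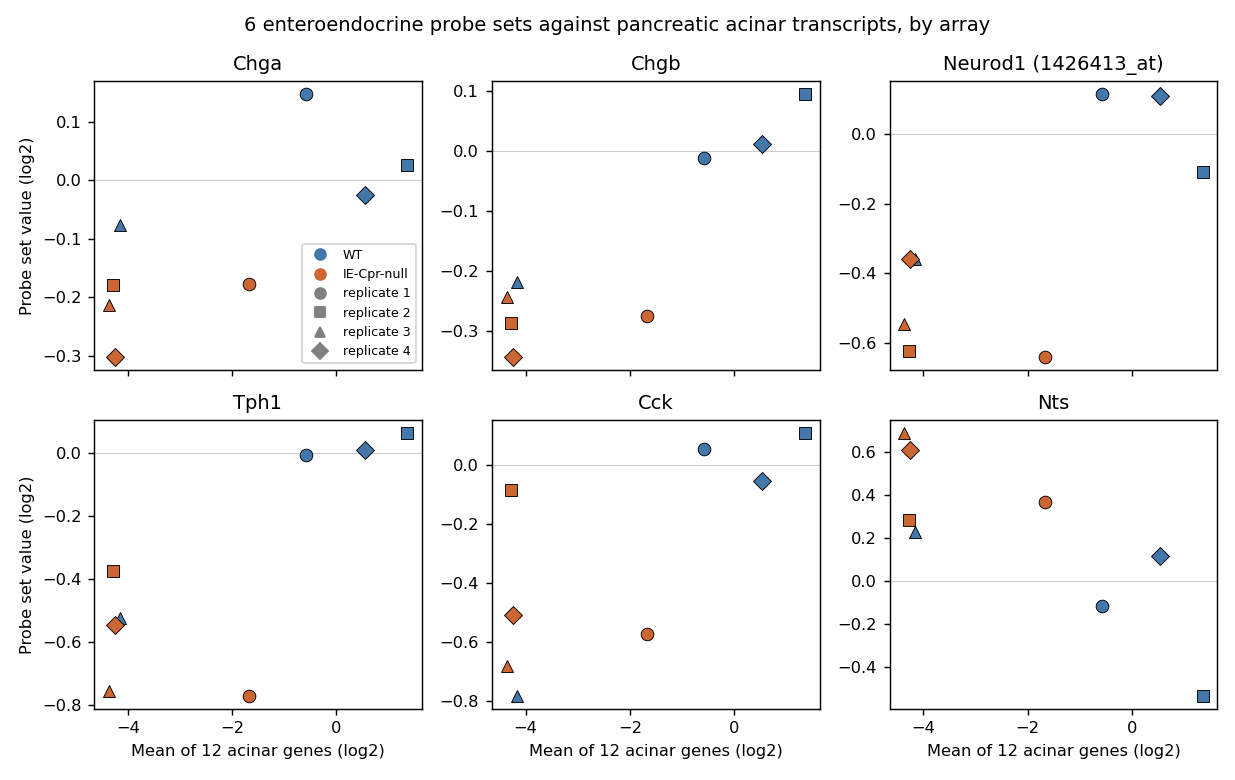
Values of 6 probe sets (vertical axes, log2 relative to the WT median) against the mean of 12 pancreatic acinar genes on the same array (horizontal axes, log2), 1 point per array. WT replicate 3 lies at -4.16 on the horizontal axis beside IE-Cpr-null replicates 2 to 4. Among these it is the highest for Chga, Chgb and, by a very small margin, Neurod1 1426413_at, and the lowest for Nts and Cck.

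Markers of the other cells and regions that such a preparation can hold were read from the same arrays. Of the upper small intestine list, 8 of 9 measured genes were lower. Its mean was -0.45 on WT replicate 3 and -0.072 to 0.86 on the other WT arrays. In IE-Cpr-null it ran from -2.25 to -0.36, the lowest being replicate 3, where Slc40a1 stood at -8.19, S100g at -6.06 and Pdx1 at -4.25. Of the lower small intestine list, 6 of 10 were lower, with means of -0.19 to 0.022 in WT and -0.50 to -0.18 in IE-Cpr-null. The median difference of that list was only -0.072, with Cubn at -1.25 and Ces1g at -1.17. Fabp6 (0.051) and Slc10a2 (0.038) were among the higher genes, and whether they were detected is unknown. The pancreatic islet list is given because islets also express Gcg and Sst. It had 5 measured genes, 3 of them lower. Those were Iapp (-0.23), also listed with the gut hormones, Pdx1 (-1.40), also in the upper small intestine list, and Slc2a2 (-0.28), shared with enterocytes. G6pc2 (0.026) and Nkx6-1 (0.0087) were slightly higher. The islet list means were -0.21 to 0.25 in WT and -0.999 to -0.11 in IE-Cpr-null. Without Pdx1 they were -0.074 to 0.034 and -0.19 to -0.062, and G6pc2 stood between -0.043 and 0.067 on all 8 arrays. With such shared genes the list mean is no measure of islet RNA alone. The enteric neuron and glia list had 6 measured genes, all 6 higher with a median difference of 0.045, where 42.4% of all genes were lower. All but Sox10 had small values of the same sign as each other on every array. They are therefore not separate observations, and whether they were detected is unknown. The means of this list were -0.053 to 0.022 in WT and -0.018 to 0.094 in IE-Cpr-null. The hepatocyte list (9 measured, all 9 higher) had means of 6.06 and 3.94 on IE-Cpr-null replicates 2 and 3 and of -0.19 to 0.20 on the other arrays. Goblet cells, the mucus-making cells, share a secretory origin with enteroendocrine cells. Their list had 7 of 8 measured genes lower, with means of -0.14 to 0.21 in WT, 0.51 on IE-Cpr-null replicate 1 and -0.38 to -0.30 on replicates 2 to 4. On IE-Cpr-null replicate 1 Retnlb stood at 3.69, Spink4 at 0.87, Spdef at 0.36 and Agr2 at 0.087. Tff3, Fcgbp, Zg16 and Clca1 ran from -0.30 to -0.087 there. Muscle and stromal transcripts (12 measured, 10 higher) averaged 4.16 on IE-Cpr-null replicate 1 and, among WT, 1.69 on replicate 2. Of the Paneth cell list, 4 of 6 measured genes were lower, and of the crypt stem and proliferating list 2 of 6. Their means were 0.49 and 0.43 on WT replicate 3, the highest of the WT arrays, and 1.29 and 0.95 on IE-Cpr-null replicate 1. On the other arrays they ran from -0.94 to 0.069 and from -0.36 to 0.12. Tuft cell means were -0.041 to 0.11 in WT and -0.096 to 0.52 in IE-Cpr-null. Leukocyte means were -0.10 to 0.15 and -0.23 to 0.091. The part of these transcripts in the differences of the members was not tested beyond the settings named above.

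Further genes, among them hormone receptors and nutrient sensors, were taken from 6 lists. Of these 124 genes 64 were measured, each read as the mean of its probe sets. In limma 0 of the 64 passed an adjusted p of 0.05, a call made for 0.0288% of all genes, and the smallest adjusted p was 0.173. At an unadjusted p under 0.05, 5 were lower (7.81%) and 3 higher (4.69%), beside 5.42% and 3.27% of all genes. By their means 21 were lower and 43 higher, with a median of 0.015 beside 0.016 over all genes, of which 42.4% were lower. Several, such as Neurog3, Pax4 and Sstr2, had nearly the same small values as each other on every array. Without levels it is unknown whether they were detected. With array weights 6 of the 64 (9.38%) passed, Ramp1, Sort1 and Ddc as lower and Cpd, Adm and Gch1 as higher, where that fit called 5.63% of all genes.

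**Figure D4:**
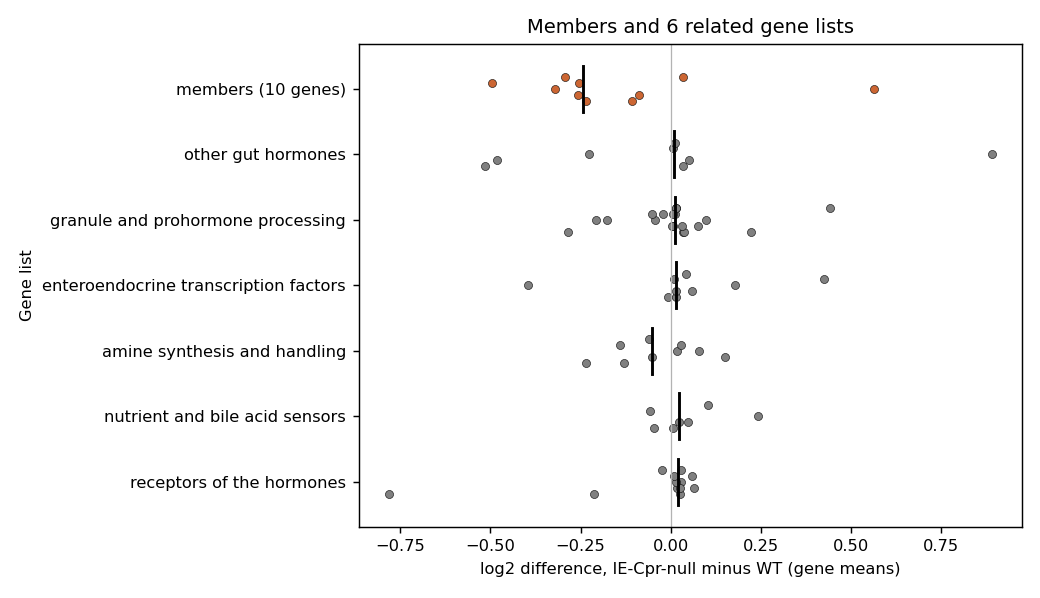
Difference between the genotypes (horizontal axis, log2, IE-Cpr-null minus WT, gene means) for the 10 members and the genes of 6 related lists, 1 point per gene, with the list median as a black bar. The 6 list medians lie between -0.051 and 0.023, and 8 of the 10 members lie below 0.

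Among the other gut hormones (8 of 16 measured, 3 lower and 5 higher, median 0.010), Sst had the smallest p. Sst encodes somatostatin, the inhibitory peptide of D cells. It stood at -0.0010, 0.0014, -0.38 and 0.0010 on the WT arrays and at -1.23, -0.15, -0.51 and -0.55 on the IE-Cpr-null arrays. WT replicate 3 again lay among the IE-Cpr-null arrays, and the difference was -0.52 (SE 0.219, limma adjusted p = 0.569). It was -0.31 without IE-Cpr-null replicate 1, -0.28 without the muscle-rich arrays and -0.79 without the hepatocyte-rich ones. Ghrl and Iapp were chosen after their values were seen. Ghrl, the gene of the hunger hormone ghrelin, stood at 0.0071, 0.068, -0.50 and -0.0071 in WT and, in IE-Cpr-null, at -0.93, -0.20, -0.90 and -0.33. Its difference was -0.48 (SE 0.207, limma adjusted p = 0.574), and without the muscle-rich arrays -0.31. Iapp, which encodes amylin, differed by -0.23 (SE 0.113, limma adjusted p = 0.651), with WT replicate 3 the lowest WT array at -0.21. The remaining 5 hormone genes had higher means, the largest that of Adm, the adrenomedullin gene (0.89, SE 0.433, limma adjusted p = 0.632).

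In the list of granule and prohormone processing genes, 19 of 27 were measured, 6 lower and 13 higher, with a median of 0.012. Cpd, which encodes a carboxypeptidase of the trans-Golgi network found in many cell types, had the smallest p at 0.22 (SE 0.0711, limma adjusted p = 0.413). Of the transcription factors that form these cells 9 of 22 were measured, 2 lower and 7 higher, with a median of 0.015. Atoh1, which commits progenitors to the secretory lineages, stood at 0.15, -0.33, 0.031 and -0.031 in WT and, in IE-Cpr-null, at -0.46, -0.74, -0.38 and -0.18. The difference was -0.39 (SE 0.141, limma adjusted p = 0.476), with WT replicate 2 within the IE-Cpr-null range. Hes1, the Notch target that represses Atoh1, was chosen after its values were seen. It stood at -0.31, 0.031, 0.11 and -0.031 in WT and, in IE-Cpr-null, at 0.58, 0.35, 0.60 and -0.039, a difference of 0.42 (SE 0.158, limma adjusted p = 0.496). With array weights the Hes1 difference was 0.089 and that of Atoh1 -0.19. Neurog3, the factor that starts enteroendocrine fate, differed by 0.014 (SE 0.0308, limma adjusted p = 0.862). Its values lay between -0.026 and 0.042, close to those of Pax4 on every array. Whether its transcript was detected is unknown, so the small difference does not show an unchanged level.

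The list of amine synthesis and handling genes (9 of 12 measured, 5 lower and 4 higher) had a median of -0.051. Among the higher ones was Tpbg (0.029), which encodes trophoblast glycoprotein and is not an amine gene. Pts, an enzyme of tetrahydrobiopterin synthesis, the cofactor that tryptophan hydroxylase needs, had the smallest p at 0.079 (SE 0.0305, limma adjusted p = 0.513). Its arrays did not overlap, a state found in 1.85% of all genes as higher. Ddc, which makes serotonin from the product of Tph1, was chosen after its values were seen. It stood at -0.0018, 0.090, -0.31 and 0.0018 in WT and, in IE-Cpr-null, at -0.39, -0.14, -0.21 and -0.41, a difference of -0.23 (SE 0.101, limma adjusted p = 0.574), or -0.15 without the muscle-rich arrays. WT replicate 3 was below IE-Cpr-null replicates 2 and 3. Nutrient and bile acid sensors (7 of 22 measured, 2 lower and 5 higher, median 0.023) were led by the peptide transporter gene Slc15a1, at 0.10 (SE 0.0503, limma adjusted p = 0.638), or 0.068 without WT replicate 2.

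Among receptors and other proteins that receive or break down the hormones, 12 of 26 were measured, 3 lower and 9 higher, with a median of 0.022. Ramp1, a membrane partner of the calcitonin receptor-like receptor, with which it forms the receptor for calcitonin gene-related peptide, had the smallest p of this list and of all 64 genes. It stood at -0.067, -0.22, 0.11 and 0.067 in WT and, in IE-Cpr-null, at -0.66, -1.12, -0.51 and -0.95. The groups were well apart, WT replicate 3 was the highest WT array, and the difference was -0.78 (SE 0.142, limma adjusted p = 0.173). With array weights it passed (-0.92, limma adjusted p = 0.00695). Sort1, which encodes sortilin, a neurotensin-binding sorting receptor, was chosen after its values were seen. It stood at 0.039, -0.055, -0.029 and 0.11 in WT and, in IE-Cpr-null, at -0.26, -0.19, -0.13 and -0.20. The groups did not overlap, and the difference was -0.21 (SE 0.0494, limma adjusted p = 0.264). Ramp1 and Sort1 were the 2 of these 64 genes whose IE-Cpr-null arrays were all below the WT arrays, a state found in 3% of all genes.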

How the data were processed

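RNA of isolated enterocytes had been hybridised to single-colour arrays. The deposited values were log2 values per probe set, made by the authors with GCRMA per the submitters' processing notes. Its version is not given in the sources used here. Each probe set had also been centred, because its WT median was 0 (tolerance 1e-05) in all 18443 cases. Centring leaves differences unaltered and removes levels, so no dim probe set was left out. Titles gave each sample's genotype and number, and no label names a batch. Genes were named from the platform annotation, and upstream sequences and coordinates came from RefSeq (GRCm38.p6). The knocked-out gene is not analysed here, so the labels have no check by its transcript.

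limma 3.58.1 (R 4.3.3) was run on all 18443 probe sets, and on 10401 genes as means of their probe sets, two-sided, with Benjamini-Hochberg adjustment over the whole table, a threshold of 0.05 and no block. The scripts were tested on simulated data. The members and lists were chosen with earlier results of these data known. Every member probe set is given, and of each related list the genes past the threshold or else the gene with the smallest p. Neurog3, Adm and the genes so marked in the text were picked with their values in view. Alternatives were quantile normalization, median centring, array weights, a replicate block, a robust prior, each array left out, the muscle-rich or hepatocyte-rich arrays left out, and, at the gene level, probe sets with shared probes left out or the probe set with the smallest p. Added after seeing the data were the acinar mean as a covariate and leaving out WT replicate 3 with IE-Cpr-null replicate 1.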

Additional observations from a re-analysis of the deposited data

Results flagged for a closer look

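Among the members, 2 of 22 sets of 4 arrays held an array whose gap to the nearest other array exceeded Dixon's 95% critical value, where chance gives about 1 in 20. Tph1 stood at -0.52 on WT replicate 3, against -0.0074 to 0.062 on the other WT arrays. Gcg stood at 0.16 on WT replicate 1, against -0.017 to 0.0076. Of the other hormone genes, Sst on WT replicate 3 was at -0.38 (others -0.0010 to 0.0014) and Ghrl on WT replicate 3 at -0.50 (others -0.0071 to 0.068). Among the marker list means, IE-Cpr-null replicate 1 was at 0.51 for goblet cells, at -1.67 for pancreatic acinar cells and at 4.16 for muscle and stroma. Its goblet mean included Retnlb at 3.69, the highest of the goblet genes on that array. IE-Cpr-null replicate 3 was at -2.25 for the upper small intestine list and at -0.999 for the pancreatic islet list. Both lists hold Pdx1, which stood at -4.25 there, and without Pdx1 the islet mean on that array was -0.19. The upper small intestine list also holds Slc40a1 and S100g, which were lower still on that array, at -8.19 and -6.06.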

How the results depend on the processing

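No member probe set and no gene of the related lists passed an adjusted p of 0.05 in limma under any setting tried except array weights, where 4 member probe sets passed. At the gene level 10 genes passed with array weights, 4 of them members and 6 of the related lists, in a fit that called 5.63% of all genes. Leaving out single arrays gave 0 passing members throughout. Member probe sets with groups that did not overlap numbered 4 as reported (4.11% of all probe sets), 1 with quantile normalization (1.58%), 4 to 7 without single arrays (7 without WT replicate 3, 7.25%), and 8 without WT replicate 3 and IE-Cpr-null replicate 1 (14.6%). Member probe sets lower at an unadjusted p under 0.05 numbered 4 as reported (4.47% of all), 1 with quantile normalization (2.07%), 1 with the acinar mean as a covariate (3.59%), 7 with array weights (11.6%) and 7 without WT replicate 3 and IE-Cpr-null replicate 1 (5.67%). Quantile normalization was applied to centred values. The number with a lower mean stayed between 9 and 10 of 11. Signs turned for Cck with the acinar covariate (0.037) and for Sct without the muscle-rich arrays (0.065). Pyy turned without the muscle-rich arrays (-0.029), with the acinar covariate (-0.18), and without WT replicate 1 (-0.079), WT replicate 2 (-0.0044) or IE-Cpr-null replicate 4 (-0.083), and ran up to 0.19 without WT replicate 3. The cause was not tested. With the replicate number as a block 5 member probe sets were lower at an unadjusted p under 0.05 (5.04% of all), and 0 passed the adjusted threshold. The labels tie no number to a litter, and the correlation of same-numbered deviations ran from -0.058 to 0.26, so the pairing is by number alone. Of the 4 WT arrays, 2 correlated best with their own number. Without levels, signal over background is unknown.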
